A study of Mus musculus with 4 samples.

Results

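The 10 genes described here encode the isozymes of the entry and commitment steps of glycolysis in the mouse: the hexokinases Hk1, Hk2 and Hk3, the phosphofructokinases Pfkl, Pfkm and Pfkp, and the bifunctional enzymes Pfkfb1, Pfkfb2, Pfkfb3 and Pfkfb4. They were chosen by gene symbol, and all 10 had a row among the 20296 genes of the table and an adjusted p-value, as did 16361 genes in all. RNA had been sequenced from naive embryonic stem cells (nESC), held in 2i/LIF medium, and from epiblast-like cells (EpiLSC), taken on day 3 in N2B27 medium with activin A at 20 ng/ml and bFGF at 12 ng/ml. Each state had 1 library of the line R1 and 1 of E14 (E14TG2a), both established embryonic stem cell lines, and no genetic change is named in the labels. The medium differs between the states, so medium and state cannot be told apart.

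Hexokinases phosphorylate glucose and so hold it in the cell. Phosphofructokinase then commits the sugar to glycolysis and works as a tetramer built from the L (liver), M (muscle) and P (platelet) subunits. The Pfkfb enzymes carry a kinase that makes fructose-2,6-bisphosphate, an activator of phosphofructokinase, and a phosphatase that removes it. Naive and primed pluripotent cells are known to balance glycolysis and respiration differently.

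The values available were 1 mean normalized count, 1 log2 fold change and 1 standard error (SE) per gene over the 4 libraries, as the authors deposited them, so no value per library and no SD can be given. Positive fold changes were taken as higher in EpiLSC, because the epiblast genes Fgf5, Otx2 and Dnmt3b were positive and the naive genes Zfp42, Klf4 and Esrrb negative, all 6 with an adjusted p under 0.05. The level of a gene in each state was worked out from its mean and its fold change, weighting the libraries equally, and is called the implied level. The 10 genes were ordered by level only per kb of transcript. The bounds given with a level or a share let that gene's fold change move over its 95% interval while its mean stayed fixed. They do not hold the error of the mean or of the length. Bounds of a share also keep the other isozymes of the step at their values. They leave out the errors of those genes and are narrower than a 95% interval of the share. In bulk RNA, fewer cells that express a gene and less of its RNA per cell cannot be told apart. Each line was sampled 1 time per state, so the p-values measure only the spread between these libraries.

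The regions upstream of the start sites are shown for the genes that fell, Pfkp and Hk1. They are also shown for Hk2 and Pfkl, which had the highest value of their steps in EpiLSC. Each is the 250 bases before a RefSeq start on GRCm38.p6, written along the gene's strand. Capitals mark ACGTG, the core of the hypoxia response element, and GGGCGG, the GC box, on either strand.
Pfkp, chr13:6648772-6649021, minus strand: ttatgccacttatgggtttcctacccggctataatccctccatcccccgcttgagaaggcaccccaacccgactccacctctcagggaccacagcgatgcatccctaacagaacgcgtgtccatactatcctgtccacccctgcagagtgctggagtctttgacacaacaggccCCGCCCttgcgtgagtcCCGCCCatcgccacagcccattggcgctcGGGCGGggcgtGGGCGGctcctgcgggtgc
Hk1, upstream start, chr10:62379909-62380158, minus strand: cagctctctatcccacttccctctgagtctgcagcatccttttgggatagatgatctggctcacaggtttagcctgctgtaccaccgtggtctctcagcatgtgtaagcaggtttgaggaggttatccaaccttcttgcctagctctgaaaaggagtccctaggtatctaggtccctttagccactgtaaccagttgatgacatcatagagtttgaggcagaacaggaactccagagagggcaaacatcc
Hk1, downstream start, chr10:62340422-62340671, minus strand: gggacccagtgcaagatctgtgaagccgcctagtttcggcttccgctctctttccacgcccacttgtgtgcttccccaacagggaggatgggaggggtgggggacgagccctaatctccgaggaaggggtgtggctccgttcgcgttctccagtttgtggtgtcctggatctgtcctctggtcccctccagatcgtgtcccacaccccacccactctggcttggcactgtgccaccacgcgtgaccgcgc
Hk2, chr6:82774455-82774704, minus strand: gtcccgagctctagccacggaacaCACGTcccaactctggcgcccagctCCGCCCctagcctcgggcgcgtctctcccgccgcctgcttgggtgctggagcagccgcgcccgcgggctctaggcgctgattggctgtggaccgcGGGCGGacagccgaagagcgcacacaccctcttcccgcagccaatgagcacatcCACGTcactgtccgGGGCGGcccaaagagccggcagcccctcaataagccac
Pfkl, chr10:78009808-78010057, minus strand: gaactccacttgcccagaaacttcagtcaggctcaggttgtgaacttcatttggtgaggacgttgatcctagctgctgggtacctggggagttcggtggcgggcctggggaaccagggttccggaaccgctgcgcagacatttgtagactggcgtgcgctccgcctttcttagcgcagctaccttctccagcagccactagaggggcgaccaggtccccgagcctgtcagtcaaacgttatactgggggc

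The Pfkp window held 4 GC boxes and no ACGTG, and that of Hk2 held 3 GC boxes and 2 ACGTG cores. In RefSeq windows of 300 bases, which add 50 bases after the start, the downstream Hk1 window had ACGTG at 7 and 16 bases past the start, and Pfkl had GC boxes at -4, 7 and 12. The upstream Hk1 window had neither motif. All 10 genes had an entry, with 20 start windows between them. ACGTG was present in 9 of these 20 windows and in 19.6% of 32851 windows of all genes, and GGGCGG in 8 of 20 and in 35.7%. The E-box CACGTG, whose letters contain ACGTG, was in 3 of the 20 and in 7.15% of all. Windows of 1 gene are not independent and some overlap, and a match is a run of letters, not a measured binding site. Which start was used in these cells cannot be read from a table with 1 value per gene.

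Phosphofructokinase was the step whose isozyme makeup differed most in value between the states. Pfkp, the platelet type subunit, had a log2 fold change of -3.40 (SE 0.70) in the authors' deposited table, a 10.5-fold fall (95% interval 4.07 to 27.2). Its implied level went from 16989.8 normalized counts in nESC to 1615 in EpiLSC. The DESeq2 adjusted p was 3.12e-05 in the authors' deposited table. Pfkl, the liver type subunit, had implied levels of 1903 (nESC) and 3603 (EpiLSC), and its log2 fold change of 0.92 (SE 1.02, DESeq2 adjusted p 0.787) did not pass, per the authors' deposited table. Pfkm, the muscle type subunit, had implied levels of 817 and 1103, with a log2 fold change of 0.43 (SE 0.82, DESeq2 adjusted p 0.926) in the authors' deposited table. Only Pfkp of the 3 subunits thus moved by more than its error.

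Per kb of transcript, Pfkp made up 83.8% (bounds 81.9% to 84.5%) of the phosphofructokinase level in nESC and 22.4% (10.5% to 39.6%) in EpiLSC. Pfkl held 10.4% (3.79% to 18.6%) in nESC and 55.6% (38.1% to 62.8%) in EpiLSC. Pfkm went from 5.80% (2.74% to 9.13%) to 22.0% (13.1% to 28.4%). The larger shares of Pfkl and Pfkm in EpiLSC stand beside fold changes of their own that did not pass. The difference between the log2 fold changes of Pfkl and Pfkp was 4.32 (95% interval 1.90 to 6.74), and that between Pfkm and Pfkp was 3.83 (1.71 to 5.95), with the errors of both genes taken as independent. Pfkl and Pfkm differed by 0.49 (-2.08 to 3.05), an interval that spans 0 and is wide. The summed level of the 3 subunits per kb was 4893 in nESC and 1739 in EpiLSC, a log2 ratio of -1.49 (95% interval -2.17 to -0.82). This interval carries only the errors of the fold changes, with the means and lengths held fixed.

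**Figure D1:**
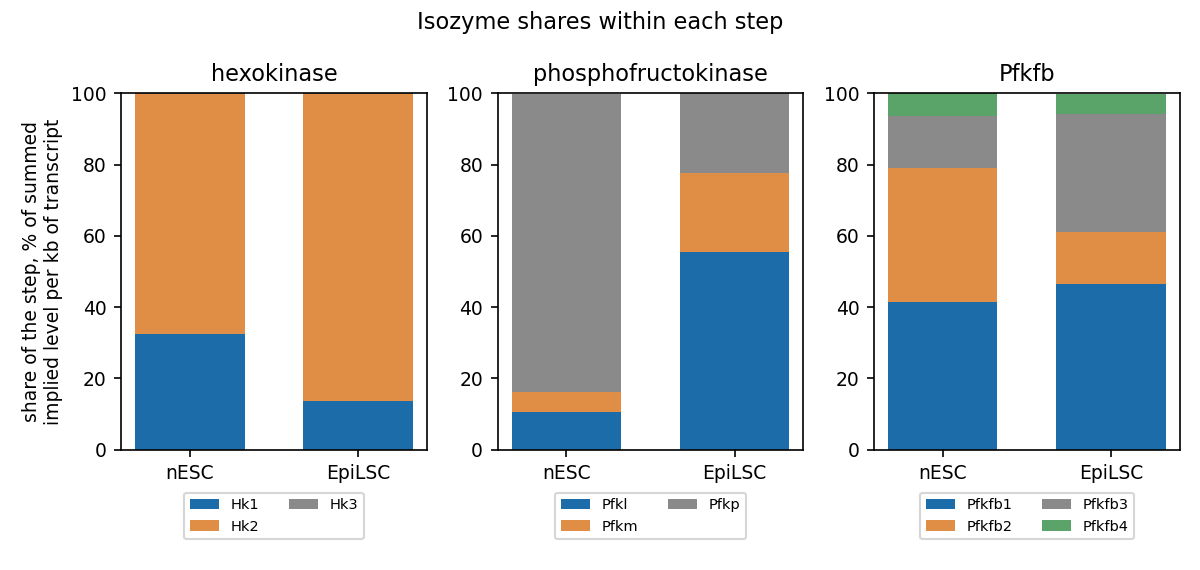
Share of each isozyme in its step (vertical axis, percent of the summed implied level per kb of transcript) in nESC and EpiLSC, with no error drawn. Pfkp fills 83.8% of the phosphofructokinase bar in nESC and 22.4% in EpiLSC, where Pfkl takes 55.6%.

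Among the hexokinases, Hk1 fell and Hk2 remained the more abundant in both states. Hk1, the form found in most tissues, which binds to the outer mitochondrial membrane, had a log2 fold change of -2.61 (SE 0.95, DESeq2 adjusted p 0.0450) in the authors' deposited table. That is a 6.11-fold fall with a 95% interval from 1.68 to 22.3, between implied levels of 3225 (nESC) and 528 (EpiLSC). Hk1 passed narrowly. With the deposited DESeq2 Wald test p-values adjusted anew over all genes without a filter, it had an adjusted p of 0.0559. Over 5 alternatives, recomputed from the deposited DESeq2 Wald test values, its adjusted p ranged from 0.0446 to 0.633. Hk1 kept its call in 1 of the 5, the centring, which moved the fold changes by only 0.0039. Hk2, the insulin-responsive form that also binds mitochondria, had implied levels of 9531 (nESC) and 4751 (EpiLSC). Its log2 fold change was -1.004 (SE 0.67, DESeq2 adjusted p 0.458) in the authors' deposited table and did not pass.

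Hk3, a form best known from myeloid blood cells, had a mean of 6.06 normalized counts in the authors' deposited table and lay above only 5.28% of tested genes by mean. Its log2 fold change of -0.76 (SE 1.71, DESeq2 adjusted p 0.945) in the authors' deposited table had an interval from -4.11 to 2.58. This wide range leaves room for differences in either direction at this depth. Of the 6 myeloid blood markers 5 had a row. Their means in the authors' deposited table ran from 0.392 (Lyz2) and 5.34 (Spi1) through 8.32 (Ptprc) and 23.4 (Itgam) to 184 (Cd68). None of the 4 tested was called, where 13.9% of all tested genes were.

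Hk2 held 67.3% (bounds 57.9% to 72.0%) of the hexokinase level per kb in nESC and 86.2% (75.7% to 91.2%) in EpiLSC. Hk1 held 32.6% (26.1% to 35.0%) and 13.7% (4.62% to 29.7%), and Hk3 0.0923% and 0.140%. The fold changes of Hk1 and Hk2 differed by 1.61 on the log2 scale (95% interval -0.68 to 3.89), so the data do not separate how far these genes moved. The summed hexokinase level per kb was 2569 in nESC and 1000.1 in EpiLSC, a log2 ratio of -1.36 (95% interval -2.46 to -0.26). This interval holds the means and the main transcript lengths fixed. Hk2, which makes up most of this sum, did not pass on its own. The mitochondrial porins Vdac1, Vdac2 and Vdac3, the docking sites of Hk1 and Hk2, had 0 calls among 3 genes and 0 under 0.05 before adjustment (DESeq2 Wald test). Over all tested genes 13.9% were called and 21.7% were under 0.05 before adjustment.

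**Figure D2:**
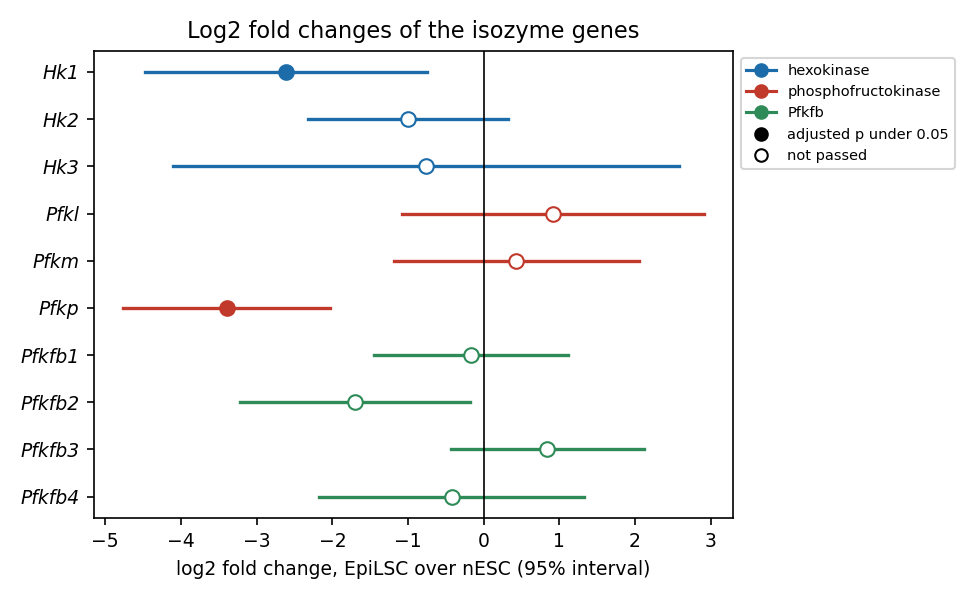
Log2 fold change of EpiLSC over nESC (horizontal axis) with its 95% interval for each of the 10 genes, coloured by step and filled where the adjusted p was under 0.05. Pfkp at -3.40 and Hk1 at -2.61 are the filled points, and the interval of Hk3 is the widest, from -4.11 to 2.58.

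None of the 4 Pfkfb genes passed over all genes tested, and Pfkfb2 alone was under 0.05 before adjustment (DESeq2 Wald test). Pfkfb2, the heart type enzyme, had implied levels of 626 (nESC) and 192 (EpiLSC). Its log2 fold change was -1.70 (SE 0.78) with an unadjusted p of 0.0285 and an adjusted p of 0.152 (DESeq2) in the authors' deposited table. Pfkfb3, the inducible form with a strong kinase relative to its phosphatase, had implied levels of 257 and 460.2 and a log2 fold change of 0.84 (SE 0.65, DESeq2 adjusted p 0.571) in the authors' deposited table. Pfkfb2 and Pfkfb3 therefore had values of opposite sign, neither of which passed.

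The log2 fold changes of Pfkfb3 and Pfkfb2 differed by 2.54 (95% interval 0.56 to 4.53). This interval no longer left out 0 with both standard errors made 1.5 times larger (-0.44 to 5.52). Pfkfb1, the liver type enzyme, had implied levels of 272 and 243, and its fold change of -0.17 (SE 0.66, interval -1.45 to 1.12) in the authors' deposited table was the 1 among the 8 genes not called whose interval lay within a 4-fold change either way. Pfkfb4, known from testis and from tumours, had the lowest level per kb of the 4 (23.3 in nESC and 17.4 in EpiLSC), with implied levels of 81.3 and 60.6 and a log2 fold change of -0.42 (SE 0.89) in the authors' deposited table. Of the 12 isozyme pairs within the 3 steps, 3 had an interval that left out 0: Pfkl and Pfkm against Pfkp, and Pfkfb3 against Pfkfb2.

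Per kb of transcript, Pfkfb1 and Pfkfb2 held 41.6% (bounds 29.8% to 49.6%) and 37.5% (29.4% to 41.5%) of the Pfkfb level in nESC. In EpiLSC Pfkfb1 held 46.6% (33.1% to 55.9%), Pfkfb3 33.1% (24.7% to 38.5%) and Pfkfb2 14.5% (6.52% to 25.3%). Pfkfb4 held 6.18% and 5.80%. Which Pfkfb gene led depended on the length used, since the main Pfkfb1 transcript spans 1739 bases and that of Pfkfb3 4634. With coding lengths, Pfkfb2 led in nESC at 48.1% and Pfkfb3 in EpiLSC at 45.6%. The summed Pfkfb level per kb was 377 in nESC and 299.8 in EpiLSC, a log2 ratio of -0.33 (95% interval -1.04 to 0.38).

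Across all 10 genes, the order per kb in nESC ran from Pfkp at 4099 normalized counts per kb through Hk2 at 1729, Hk1 at 837, Pfkl at 510.1, Pfkm at 284, Pfkfb1 at 157, Pfkfb2 at 141, Pfkfb3 at 55.4 and Pfkfb4 at 23.3 to Hk3 at 2.37. The bounds of Pfkp, Hk2 and Hk1 did not overlap one another, whereas those of Hk1 and Pfkl, Pfkl and Pfkm, Pfkm and Pfkfb1, Pfkfb1 and Pfkfb2, and Pfkfb3 and Pfkfb4 did. In EpiLSC the order began with Pfkl at 966 and Hk2 at 862, followed by Pfkp at 389.5, Pfkm at 383, Pfkfb1 at 139.6, Hk1 at 137, Pfkfb3 at 99.3, Pfkfb2 at 43.5, Pfkfb4 at 17.4 and Hk3 at 1.40. There the bounds of Pfkl and Hk2, of Pfkl and Pfkp, of Hk2 and Pfkp, and of Pfkp and Pfkm overlapped. The leading places were thus not separated.

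**Figure D3:**
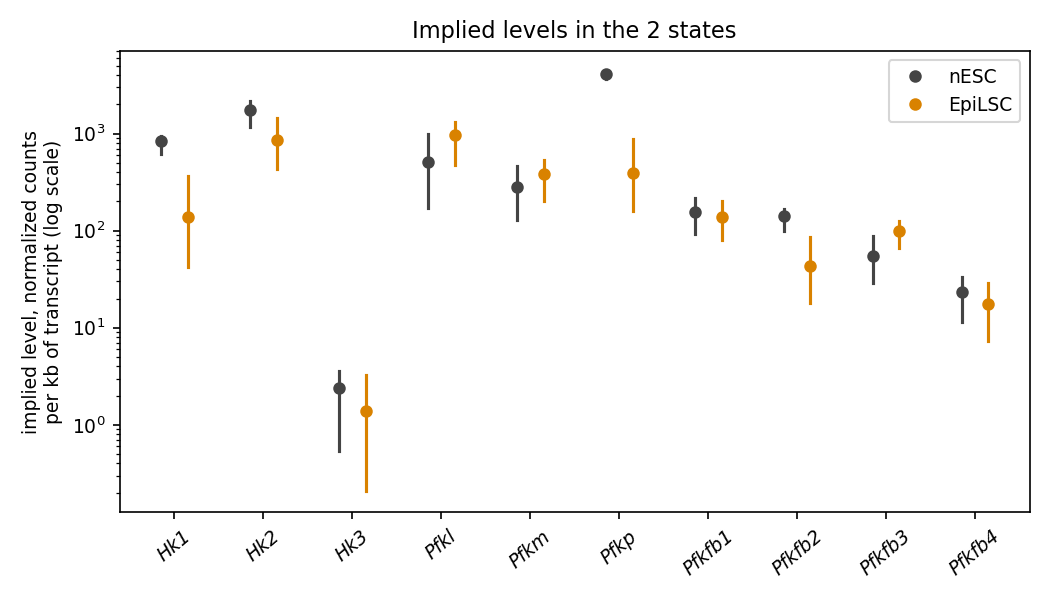
Implied level per kb of transcript (vertical axis, normalized counts per kb, log scale) of the 10 genes in nESC (grey) and EpiLSC (orange). Points are implied levels and lines the bounds from the 95% interval of the fold change. Pfkp drops from 4099 to 389.5, below Pfkl at 966, though the EpiLSC lines of these genes overlap.

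Read against the whole table, 2 of the 10 genes fell, where 6.23% of tested genes fell (DESeq2 adjusted p under 0.05), and 0 rose, where 7.67% rose (13.9% in all). With a 2-fold change as the null, 1 of the 10, Pfkp, passed, where 6.91% of tested genes did. At an unadjusted p under 0.05 the count was 3 of 10, against 21.7% of tested genes (DESeq2 Wald test). The median log2 fold change of the 10 genes was -0.59 and that of tested genes 0.02. Among the 1105 other tested genes with a mean within a factor of 2 of that of Pfkp, 1.72% had a lower log2 fold change. For Hk1 this share was 2.66% of 3465 genes and for Hk2 8.08% of 1461.

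The errors of these genes were not alike. Pfkl (SE 1.02) and Hk1 (SE 0.95) had standard errors above those of 98.2% and 96.5% of genes of like mean in the authors' deposited table, whose medians were 0.67 for both. Pfkp (SE 0.70) lay above 60.8% and Hk2 (SE 0.67) above 48.7% of their like-mean genes in the authors' deposited table. Pfkfb1 and Pfkfb3 were at the low end, above 7.87% and 11.5%. The libraries of R1 and E14 are the replicates behind each standard error, and whether the lines differed in Hk1 or Pfkl was not tested.

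**Figure D4:**
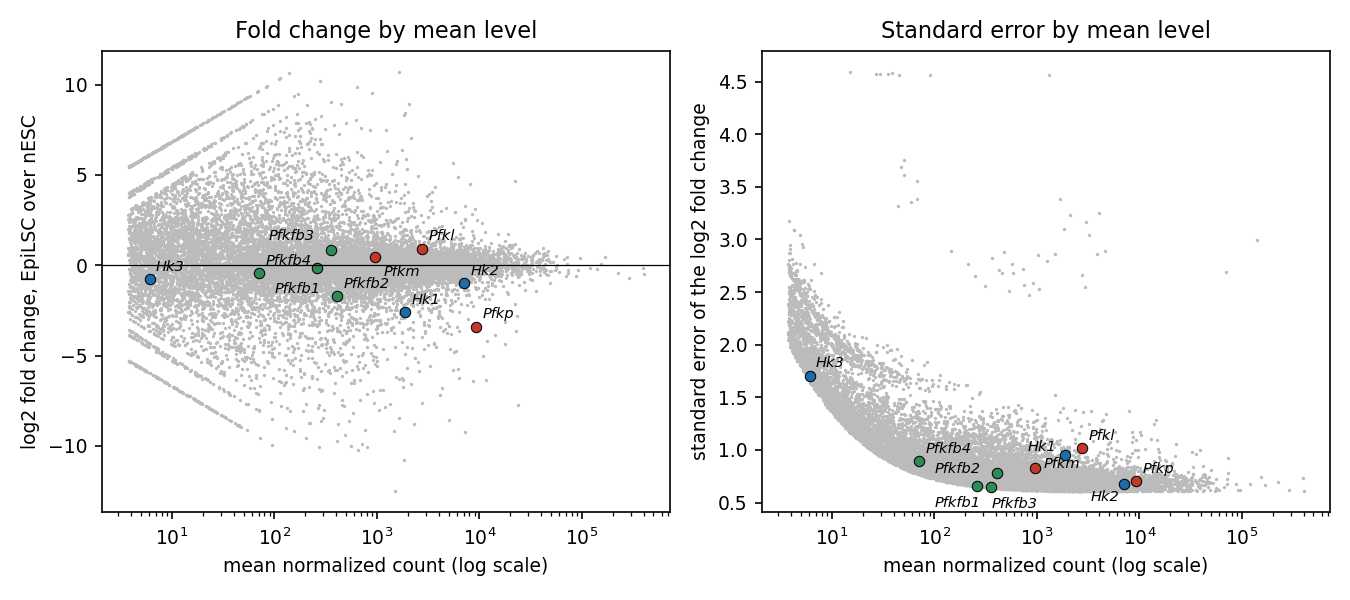
Log2 fold change (left) and its standard error (right) against the mean normalized count (log scale) for all tested genes in grey and the 10 isozyme genes in colour (blue hexokinases, red phosphofructokinases, green Pfkfb). Pfkp lies below the bulk of genes of its mean at -3.40, and Pfkl and Hk1 lie above the bulk of standard errors at 1.02 and 0.95.

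Some of the genes share their span with others in GENCODE M21. Pfkp overlaps Pitrm1 on the opposite strand, which had a log2 fold change of -0.22 (SE 0.63), and Hk1 overlaps its antisense transcript Hk1os, with a mean of 5.10, in the authors' deposited table. Pfkm overlaps Senp1, Pfkfb1 Apex2 and Pfkfb2 Yod1, all on the opposite strand and not called. The libraries were strand-specific per the labels, but the strand setting of the counting is not given in the sources used here, so reads where exons overlap cannot be assigned with certainty.

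Enzymes that work against or beside these steps were taken next. In a list of 11 genes of glucose entry and its branches, 8 were tested, 1 rose and 2 fell, with a median log2 fold change of -0.077, where 7.67% of all tested genes rose and 6.23% fell. Tigar, a phosphatase that lowers fructose-2,6-bisphosphate, fell, with a log2 fold change of -1.87 (SE 0.62, DESeq2 adjusted p 0.0243) in the authors' deposited table. The fructose bisphosphatases, which reverse the phosphofructokinase step, split: Fbp2 had -5.36 (SE 1.53) and fell, while Fbp1 had 2.60 (SE 0.92) and rose, in the authors' deposited table. Both were scarce, with implied levels of 42.9 and 1.04 for Fbp2 and 10.8 and 65.5 for Fbp1 in nESC and EpiLSC, so the fold of Fbp2 rests on few reads.

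Gpi1, which acts between hexokinase and phosphofructokinase, had a log2 fold change of -0.85 (SE 0.85) and did not pass, per the authors' deposited table. Aldoa, the aldolase after phosphofructokinase, had -0.25 (SE 0.94) and was not called, per the authors' deposited table. Of lower glycolysis 13 of 16 genes were tested and of the pentose phosphate pathway 9 of 11. Of the hexosamine and glycogen routes 14 of 15 were tested. Each of these lists had 0 called genes, where 13.9% of all tested genes were called, and 0 calls do not show unchanged levels. At an unadjusted p under 0.05 the counts were 0, 0 and 1 (DESeq2 Wald test), where 21.7% of all tested genes passed. The last was Pgm2 at -1.54 (SE 0.63) in the authors' deposited table. Hkdc1, a further hexokinase-like gene, had a mean of 1.98 in the authors' deposited table, so its value rests on few reads.

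Among 13 genes known to regulate these enzymes, 1 fell and 0 rose, a count near the shares over all tested genes (6.23% and 7.67%). That gene was Epas1, a hypoxia-inducible factor subunit, at -5.79 (SE 1.10) in the authors' deposited table. Mlxipl, a glucose-responsive factor, had 2.43 (SE 1.00) with an unadjusted p of 0.0147 and an adjusted p of 0.0903 (DESeq2) in the authors' deposited table. Hif1a, a better known relative of Epas1, had 0.85 (SE 0.74) and did not pass, per the authors' deposited table.

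**Figure D5:**
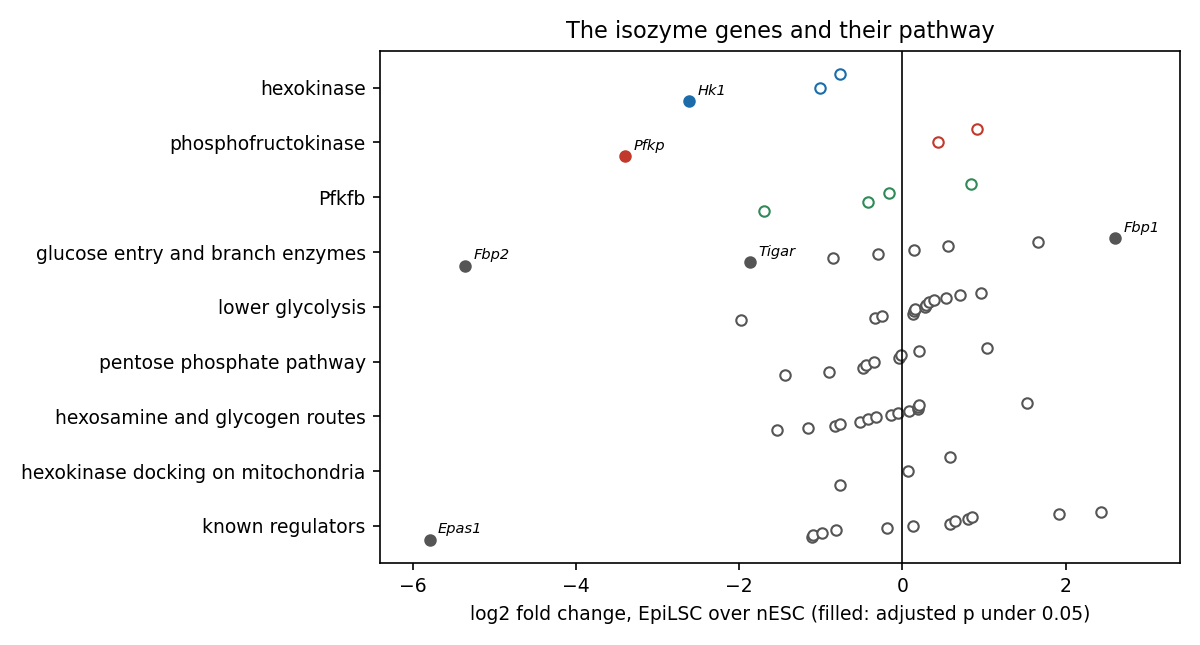
Log2 fold change of EpiLSC over nESC (horizontal axis) for every tested gene of the 3 isozyme families and of 6 related lists, filled and named where the adjusted p was under 0.05. Pfkp, Hk1, Fbp2, Tigar and Epas1 are filled on the left and Fbp1 on the right, and no gene of lower glycolysis is filled.

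Markers of tissues where single isozymes are typical were looked up beside the isozymes. Of 35 markers of muscle, myeloid blood, liver, fibroblasts, spermatids and primitive endoderm, 26 had a row, 16 were tested, 4 rose and 0 fell. Over all tested genes 7.67% rose and 6.23% fell. The 4 were Acta1, Thy1, Mmp2 and Foxa2. Of the tested markers, Pdgfra, Pdgfrb, Itgam, Cd68, Spi1 and Alb had negative log2 fold changes and were not called. Summed implied levels in nESC and EpiLSC were 68.7 and 288 for the muscle list, 267 and 176 for blood, 14.04 and 11.99 for liver, 99.6 and 416 for fibroblasts and 92.7 and 190.1 for primitive endoderm. The 5 spermatid markers were among the 9 without a row. Single markers ranged widely in the authors' deposited table: means ran from 0.392 (Myh1) to 155 (Actn3) in the muscle list and from 0.487 (Tat) to 11.2 (Alb) in the liver list. Foxa2 alone, with implied levels of 1.48 and 142.9, made up most of the primitive endoderm sum in EpiLSC. In that list Pdgfra went from 69.9 to 13.5 and Gata6 from 3.47 to 2.16, while Gata4, Sox17 and Sox7 had positive log2 fold changes and were not called. The part of these cell types in the isozyme values was not tested.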

How the data were processed

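RNA was sequenced from 4 mouse libraries, 2 per state. TopHat2, HTSeq, DESeq2 1.8.2 and the build mm9 are listed by the submitters' processing notes. Neither the annotation nor the strand setting is given in the sources used here. The authors deposited 1 comparison table. Its mean is a signal, made by the authors by averaging counts, each divided by a size factor, over the libraries, per the file headers. The authors made the log2 fold changes, the standard errors and the Wald score with DESeq2, as the file headers name them. The deposited p-value equalled the two-sided normal p of that score within 4.4e-15, and the deposited adjusted p-value its Benjamini-Hochberg value over 16361 genes within 2.3e-15. The other 3935 genes, whose mean was at most 3.74, had no adjusted p-value and are counted here as not tested. Their deposited p-values entered only the alternative without a filter on the mean. Total reads per library are unknown, and the means summed to 27888553.

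The authors' deposited test was the main one, as planned; new p-values were computed from the deposited fold changes and errors only for the alternatives. Genes with an adjusted p under 0.05 were called. The members and lists were chosen with earlier results of these data known. All 10 members were named, and of each list up to 2 called genes per direction plus Gpi1, Aldoa and the 6 direction markers. Pgm2, Hkdc1, Mlxipl, Hif1a, the porins, the overlapping genes and the tissue markers were named after their values were seen. 1 gene was taken out of the glucose entry list and is not reported here.

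Implied levels were computed with Python 3.11.15: with a fold change F (2 to the power of the log2 fold change), the nESC level is 2 times the mean divided by 1 + F, and the EpiLSC level is F times that. Lengths came from the principal GENCODE M21 transcript, and names matched 20167 of 20296 gene IDs. Intervals of differences and of summed levels treat gene errors as independent. Those of summed levels hold the means and the main transcript lengths fixed. The adjustment and the calls were tested on simulated data. For the levels, simulated data showed only that the formula returns the values put in. Whether the deposited fold change equals the ratio of the state means was not tested. Alternatives were other gene filters, a 2-fold null, centring, Benjamini-Yekutieli adjustment, other lengths and wider errors.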

Additional observations from a re-analysis of the deposited data

How the results depend on the processing

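The fall of Pfkp kept its call under all 5 alternatives for calls (adjusted p 2.42e-05 to 0.0124, recomputed from the deposited DESeq2 Wald test values). The number of genes that fell was 1 in place of 2 with no filter on the mean, with a minimum mean of 100 (met by 8 of the 10 genes), against a 2-fold change and under Benjamini-Yekutieli adjustment; 0 rose in each. In each of these 4 settings the call lost was that of Hk1, with a recomputed adjusted p of 0.0559, 0.0518, 0.633 and 0.463 (from the deposited DESeq2 Wald test values). Centring the fold changes moved them by only 0.0039, too little to put either call to the test, and left both calls.

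With another gene length, some shares moved beyond their bounds, which leave out the errors of the other isozymes. Without division by length, nESC shares were 25.3% for Hk1, 74.7% for Hk2, 86.2% for Pfkp, 22.0% for Pfkfb1 and 50.6% for Pfkfb2, and EpiLSC shares 25.4% for Pfkfb1 and 48.1% for Pfkfb3. With coding lengths they were 24.7%, 75.2%, 86.1%, 24.7% and 48.1% in nESC, and 28.3% and 45.6% in EpiLSC, for the same genes in the same order. With the union of exons, nESC shares were 19.1% for Hk1, 80.8% for Hk2, 13.6% for Pfkm, 70.5% for Pfkp and 42.1% for Pfkfb2, and EpiLSC shares 92.7% for Hk2 and 33.3% for Pfkm. Under all 3 settings Pfkp had the largest value in nESC, Pfkl in EpiLSC and Hk2 in both, whereas the leading Pfkfb gene was Pfkfb2 in nESC and Pfkfb3 in EpiLSC. With the union of exons Pfkfb3 (38.0%) and Pfkfb1 (37.7%) were nearly level in EpiLSC. The EpiLSC bounds of Pfkl and Pfkp overlapped in the main setting (38.1% to 62.8% and 10.5% to 39.6%). They also overlapped without division by length (39.5% to 64.1% and 12.3% to 43.8%) and with coding lengths. With standard errors 1.5 times larger, the difference of Pfkfb3 and Pfkfb2, 2.54, had a lower bound of -0.44 and spanned 0. Pfkl and Pfkm against Pfkp still left out 0, and the intervals of the other 9 pairs spanned 0 with either error.

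No paired analysis was possible because the table has no column per library, and for the same reason no library was left out in turn. Depth limits Hk3, with 24.3 normalized counts over the 4 libraries.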
